A study of Mus musculus with 8 samples.

Results

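The 8 genes described here encode C-type lectin receptors of myeloid cells: Clec4e, Clec4d, Clec4n, Clec7a, Clec5a, Clec12a, Clec4a2 and Clec4a3. They were taken by name, as every probe whose gene name on the array was one of these 8. No measured value entered that rule, but the 8 were chosen with earlier results of these data known. All 8 were among the 18266 genes that could be tested. The samples were Ly-6C-high monocytes, circulating phagocytes that display much of the surface antigen Ly-6C, from 4 healthy, untreated female C57BL/6 mice aged 8 to 12 weeks and fed chow. From each mouse, cells were taken from blood and from spleen, giving 4 samples per tissue. The sort took CD11b-high, Ly-6C-high cells. Cells with lineage antigens (NK1.1, CD49b, CD90, B220, Ly-6G) or with CD11c, I-Ab or a macrophage antigen were gated out. RNA came from 1000 cells per sample, its integrity number was at least 8, and 5 ng of RNA was amplified, labelled with the dye Cy3 and hybridized to a 1-colour Agilent array. Both groups share strain, sex, age, diet and sort, and differ in tissue alone as far as the labels say. The series title contrasts monocytes of a splenic reservoir with their blood counterparts, and the question here is how alike these receptors were in the 2 tissues.

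Receptor levels in spleen and blood were not separated by these arrays. None of the 8 genes passed the adjusted threshold of 0.05 (limma, Benjamini-Hochberg over all 18266 genes), where the smallest adjusted p was 0.884, and 0% of all genes passed. At an unadjusted limma p of 0.05 the count was 1 of 8, Clec4e, against 5.43% of all genes. Clec4e, at 1.29 ± 0.55 (SE) higher in spleen on the log2 scale, and Clec4d, at 1.04 ± 0.69 higher, had the largest differences. Clec4n, Clec7a and Clec4a3 had the smallest, from -0.05 to 0.01, with 95% intervals that stayed within a 2-fold difference. All these values come from the authors' table. The deposited scanner files, 3 of which do not match that table, gave other sizes. With all 8 files at the 75th percentile, Clec7a differed by 1.79, Clec4a3 by 0.83 and Clec4n by -0.09.

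C-type lectin receptors recognise carbohydrates, glycolipids and other structures of fungi, bacteria and damaged cells at the surface of monocytes, macrophages, dendritic cells and neutrophils. Clec4e (Mincle), Clec4d (MCL) and Clec4n (Dectin-2) signal through the adaptor chain Fcer1g, Clec5a (MDL-1) through the adaptor Tyrobp, and Clec7a (Dectin-1) through a tyrosine motif in its own tail. These routes meet at the kinase Syk, which leads through Card9, Bcl10 and Malt1 to inflammatory genes. Clec12a (MICL) and Clec4a2 (DCIR1) carry an inhibitory motif that recruits the phosphatases Ptpn6 and Ptpn11. Clec4a3 (DCIR3) is a close relative of Clec4a2.

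Values are those of the authors' log2 table, in which all 8 columns had a median of 7.31, and a value of 6.8 or more was taken as above background. For 3 blood samples (1, 2 and 3) the deposited scanner file came from another array than the table's column, as rank correlations of 0.842, 0.852 and 0.872 between file and column showed. The other 5 correlations rounded to 1. The sources used here do not say which deposit is the intended one, so each receptor other than Clec12a, too dim there to be tested, is also given with blood 4 as the sole blood sample. On the 5 arrays whose file and column matched, 26520 to 29562 probes passed the scanner's test for a signal well above background. Monocyte markers had a median per sample of 12.06 to 12.41 in blood and 11.97 to 12.29 in spleen. Of 13 listed, 9 were tested, 3 higher and 6 lower in spleen. Itgam, which encodes CD11b, differed by 0.00, Csf1r, a growth factor receptor of monocytes, by 0.15, and Fn1, which encodes fibronectin, by -0.54. Ccr2, the chemokine receptor of this subset, differed by -0.41. It had no value for spleen 3, and its other spleen values lay below blood, as in 1.41% of all genes. Ms4a3, a marker of monocyte and granulocyte precursors, differed by 0.92, with all spleen values above blood and all blood values below background. In such pooled cells, fewer cells of a type and less RNA per cell cannot be told apart.

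The array carried 12 probes of 60 bases for the 8 genes, all placed on chromosome 6 of the mouse build mm7 by the scanner files. No exon or UTR annotation was used here. The probe of Clec4a3 lies at 123006600 to 123006659 and the main probe of Clec4a2 at 123177429 to 123177488, both on the plus strand. Further along the same cluster, the Clec4d probe lies at 123311550 to 123311609 on the plus strand and that of Clec4e at 123319640 to 123319699 on the minus strand. The probes of Clec12a (129388174 to 129388233, plus) and Clec7a (129485033 to 129485092, minus) form a second group, and the main probe of Clec5a lies apart at 40507043 to 40507102 on the minus strand. For 3 genes there was a probe whose ends lie further apart on the genome than its own length, so that it spans an intron and reads spliced RNA. These are shown because they span an intron, and which transcript form they read was not determined. They lie for Clec4a2 at chr6:123165001-123176223 (plus), for Clec4n at chr6:123281342-123283248 (plus) and for Clec5a at chr6:40512292-40515206 (minus), in mm7:
Clec4a2: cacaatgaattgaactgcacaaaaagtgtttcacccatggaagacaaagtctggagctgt
Clec4n: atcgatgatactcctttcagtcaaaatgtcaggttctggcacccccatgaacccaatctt
Clec5a: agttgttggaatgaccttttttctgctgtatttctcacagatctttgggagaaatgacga

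Promoter windows of 300 bases, from 250 before to 50 after the transcript start, were available from RefSeq (GRCm38.p6) for 7 of the 8 genes. Those of the neighbours Clec4e, at chr6:123289822-123290121 on the minus strand, and Clec4d, at chr6:123261857-123262156 on the plus strand, are shown because these genes had the largest differences. Capitals mark a match to the C/EBP motif TTGCNNAA on either strand:
Clec4e: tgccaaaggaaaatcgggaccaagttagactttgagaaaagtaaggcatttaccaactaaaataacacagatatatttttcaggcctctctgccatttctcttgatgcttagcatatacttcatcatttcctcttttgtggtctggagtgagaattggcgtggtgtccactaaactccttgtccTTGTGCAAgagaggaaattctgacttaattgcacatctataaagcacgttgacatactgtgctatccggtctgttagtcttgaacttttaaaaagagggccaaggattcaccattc
Clec4d: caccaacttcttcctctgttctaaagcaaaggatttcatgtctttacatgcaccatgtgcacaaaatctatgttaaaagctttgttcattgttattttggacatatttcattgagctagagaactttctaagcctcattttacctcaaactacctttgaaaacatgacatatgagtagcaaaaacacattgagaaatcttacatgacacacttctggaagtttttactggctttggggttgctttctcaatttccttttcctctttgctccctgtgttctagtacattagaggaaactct

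The match in the Clec4e window begins at position -66 from the transcript start, and the Clec4d window holds none of the 3 motifs searched. Both strands were searched for TTGCNNAA, which occurs in 10.8% of 32841 mouse promoter windows, for the PU.1 motif GAGGAAGT (3.20%) and for the AP-1 motif TGANTCA (7.81%). Clec12a held a C/EBP match at -140 and an AP-1 match at -213, and Clec4a2 an AP-1 match at 31. These are matches of letters and not measured binding sites.

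Clec4e senses mycobacterial and fungal glycolipids and a ligand from dying cells. Its log2 values were 7.70, 9.07, 9.54 and 8.82 in blood 1 to 4 and 9.64, 8.82, 11.16 and 10.66 in spleen 1 to 4. Spleen 1, 3 and 4 lay above every blood value, while spleen 2 fell among the blood samples. The means were 8.78 ± 0.78 (SD, n = 4) and 10.07 ± 1.05 (SD, n = 4), a 2.45-fold difference with a 95% interval of 0.06 to 2.52 on the log2 scale. Limma gave an unadjusted p of 0.042 and an adjusted p of 0.884, and this p ranked 863 among all genes. At that unadjusted level 3.09% of all genes were higher in spleen. Against blood 4 alone the difference was 1.26, and between spleen 4 and blood 4, whose scanner files come from the same slide, it was 1.84. Leaving out 1 sample at a time gave 0.93 to 1.71, the lowest without spleen 3 and the highest without spleen 2.

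Clec4d pairs with Clec4e and promotes its display at the cell surface. Its values were 9.45, 9.31, 10.25 and 10.50 in blood 1 to 4 and 12.02, 9.02 and 11.70 in spleen 1, 2 and 4, with no value for spleen 3 in the table. Spleen 1 and 4 were the highest of all and spleen 2 the lowest of all, so the tissues overlapped. The means were 9.87 ± 0.58 (SD, n = 4) and 10.91 ± 1.64 (SD, n = 3), with an interval of the difference from -0.55 to 2.63. Placing the scanner signal of spleen 3 on the table's scale gave 9.70 for the empty cell, inside the blood range, and lowered the difference to 0.73. Single samples moved it from 0.48 without spleen 1 to 1.98 without spleen 2, where limma's adjusted p was 0.372. Against blood 4 alone it was 0.42. Over the 7 samples with both values, Clec4e and Clec4d had the highest correlation among the 28 pairs of receptors (Pearson r = 0.71, exact permutation p = 0.068, 0.63 after Benjamini-Hochberg over the 28 pairs; Spearman rho = 0.57, exact permutation p = 0.2, adjusted 0.862). The r was 0.34 without the 2 samples farthest from the Clec4d median, and 0.60 over deviations from the tissue means. The permutations moved values freely between tissues, although samples share tissue and array, so these p-values are a description only. No pair passed after adjustment.

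Clec4n binds mannans of fungal cell walls. Its probe read 8.67, 8.50, 8.31 and 9.37 in blood 1 to 4 and 9.31, 8.54, 8.18 and 8.86 in spleen 1 to 4. The tissues covered the same range, at means of 8.71 ± 0.46 and 8.72 ± 0.48 (SD, n = 4 each). The difference of 0.01 ± 0.32 (SE) had an interval of -0.71 to 0.72. Against blood 4 alone, the highest blood sample, it was -0.65.

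**Figure D1:**
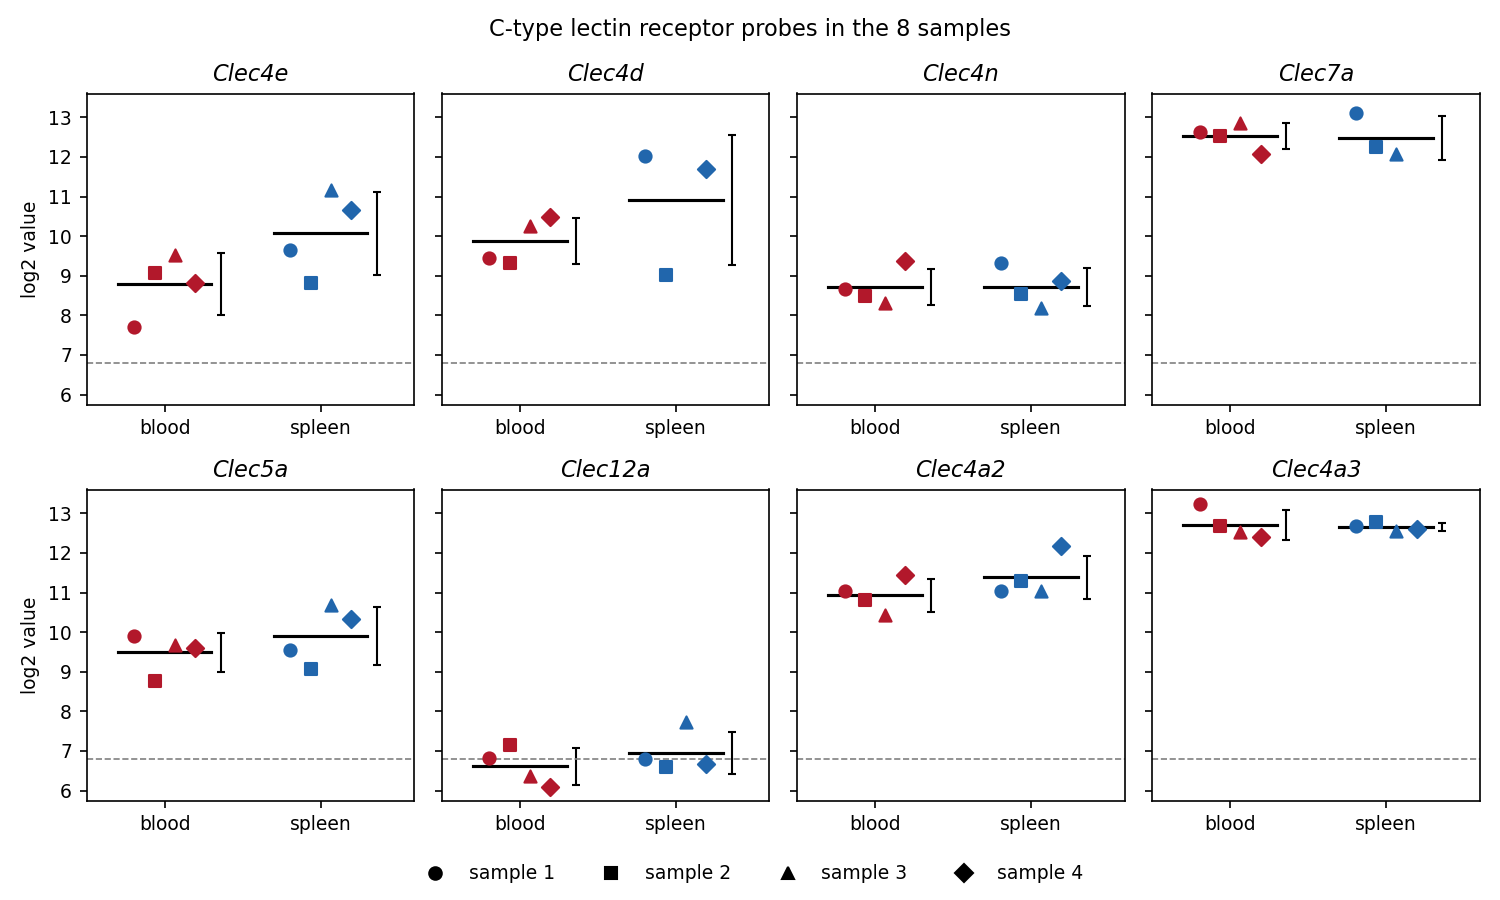
Log2 values of the 8 receptor genes in each sample, with blood 1 to 4 in red and spleen 1 to 4 in blue and one symbol per sample number. Horizontal lines are tissue means, bars are 1 SD, and the dashed line is the background level of 6.8; Clec4e and Clec4d spread most within spleen, and no gene has groups that do not overlap. Panels show different probes, whose levels are not comparable.

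Clec7a, the receptor of fungal beta-glucan, was bright in both tissues. It read 12.64, 12.53, 12.87 and 12.09 in blood 1 to 4 and 13.12, 12.25 and 12.09 in spleen 1 to 3, with no value for spleen 4. The spleen samples held both the highest and the lowest value. The means of 12.53 ± 0.33 (SD, n = 4) and 12.49 ± 0.56 (SD, n = 3) differed by -0.04 ± 0.32 (SE), with an interval of -0.78 to 0.69. The scanner signal placed spleen 4 at 12.63, which left the difference at -0.01, and against blood 4 alone it was 0.40.

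Clec5a, a receptor engaged by dengue virus, had 3 probes. The brightest read 9.90, 8.77, 9.68 and 9.60 in blood 1 to 4 and 9.54, 9.06, 10.68 and 10.32 in spleen 1 to 4. Spleen 3 and 4 lay above all blood samples and the other two did not. The means were 9.49 ± 0.49 and 9.90 ± 0.73 (SD, n = 4 each), a difference of 0.41 ± 0.39 (SE) with an interval of -0.47 to 1.29. It was 0.16 without spleen 3 and 0.69 without spleen 2, and against blood 4 alone it was 0.31. The intron-spanning probe, listed above, differed by 0.53 ± 0.33 (SE) but ordered the samples otherwise, at 7.45, 7.27, 8.07 and 7.37 in blood and 7.89, 8.97, 7.70 and 7.72 in spleen. The third probe was near background, above it on 3 of 8 arrays. Across samples, the Clec5a probes did not rise and fall together (r = -0.29, -0.19 and -0.06 over 8 samples), so the pattern of single samples depends on the probe.

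The inhibitory receptor Clec12a, which binds uric acid crystals, stayed close to background. Its values were 6.83, 7.16, 6.36 and 6.10 in blood 1 to 4 and 6.80, 6.60, 7.72 and 6.68 in spleen 1 to 4. Only blood 1, blood 2, spleen 1 and spleen 3 reached the background level. The difference of 0.34 ± 0.33 (SE), from -0.40 to 1.08, is therefore one between dim signals, and spleen 3 set much of it, since it was 0.08 without that sample.

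Clec4a2, the inhibitory receptor of dendritic cells and monocytes, had 3 probes, of which the brightest was above background in every sample. It read 11.03, 10.81, 10.44 and 11.45 in blood 1 to 4 and 11.03, 11.30, 11.03 and 12.16 in spleen 1 to 4. Spleen 4 was the highest sample and the other spleen values lay within the blood range. The means were 10.93 ± 0.42 and 11.38 ± 0.54 (SD, n = 4 each), a difference of 0.45 ± 0.32 (SE) with an interval of -0.27 to 1.17. It was 0.19 without spleen 4 and 0.62 without blood 4, and against blood 4 alone it was -0.07. The intron-spanning probe gave 0.44 ± 0.34 (SE), from 10.04, 9.19, 9.65 and 9.33 in blood and 9.40, 9.52, 10.64 and 10.41 in spleen. These probes ordered the samples differently (r = 0.35 over 8 samples). The third probe reached background in blood 1 and spleen 3 alone and its tissue means differed by 0.02. Its r was 0.81 with the intron-spanning probe and -0.11 with the brightest, over 7 samples.

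Clec4a3 had the narrowest interval of the 8. It read 13.25, 12.69, 12.52 and 12.39 in blood 1 to 4 and 12.69, 12.77, 12.56 and 12.61 in spleen 1 to 4. The spleen samples lay inside the blood range, with an SD of 0.09 (n = 4) against 0.38 (n = 4) in blood. The difference of -0.05 ± 0.23 (SE) had an interval of -0.57 to 0.47, and against blood 4 alone, the lowest blood sample, it was 0.27.

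Across the receptors, 6 were higher and 2 lower in spleen, where 48.8% of all tested genes were higher. Their median difference was 0.38, against -0.01 for all genes. It was 0.17 without spleen 3, 0.23 without spleen 4, and 1.34 or 1.23 over the 7 receptors tested with all 8 scanner files (75th percentile or normexp). No receptor had spleen values entirely above or below blood, against 3.3% of all genes. Intervals stayed within a 2-fold difference for 3 receptors, against 55.1% of all genes. For the other 5, a 2-fold difference lay inside the interval.

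**Figure D2:**
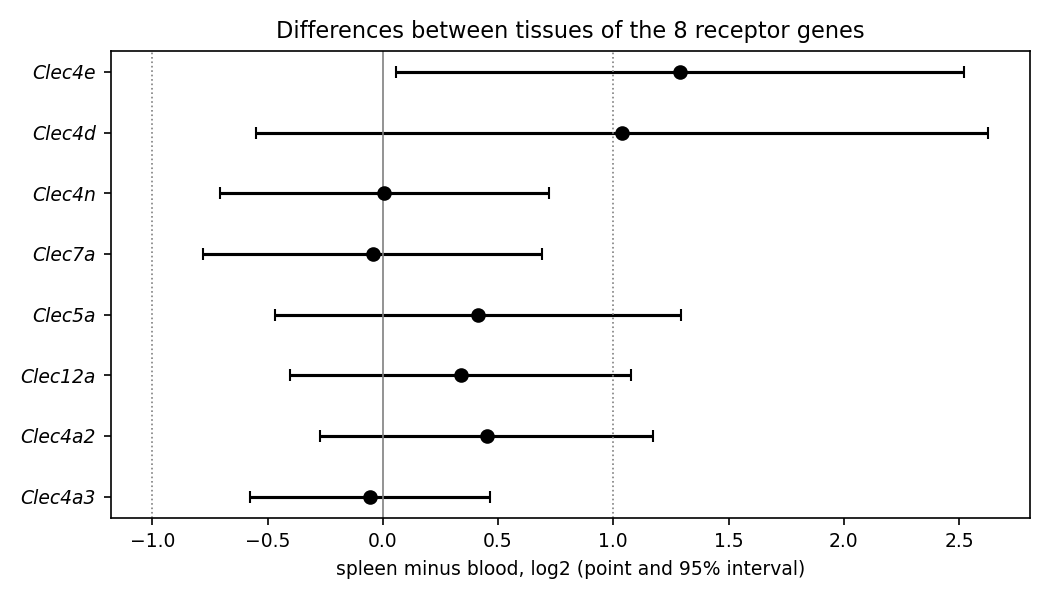
Difference between tissues for each receptor, spleen minus blood on the log2 scale, as the limma estimate (point) with its 95% interval (bar). Dotted lines mark a 2-fold difference; Clec4e alone has an interval that leaves out 0, and Clec4n, Clec7a and Clec4a3 lie inside the dotted lines.

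Neutrophils carry several of these receptors too, and neutrophil markers differed between the tissues. Of 16 listed markers 13 were tested, 12 of them higher in spleen, 8 with an unadjusted limma p below 0.05 and 6 with spleen values entirely above blood. Over all genes the shares in that direction were 48.8%, 3.09% and 1.88%. The median level of the markers was 7.26, 6.79, 8.67 and 8.00 in blood 1 to 4 and 9.12, 9.27, 9.26 and 9.65 in spleen 1 to 4. Every spleen sample was thus above every blood sample. S100a8, a chain of calprotectin, was 5.57 ± 0.72 (SE) higher in spleen, and Lcn2, a granule protein that binds siderophores, 3.97 ± 0.45 higher, both at a limma adjusted p of 0.054. Blood 1, 2 and 4 were below background for Lcn2, and blood 2 was for S100a8, so the sizes are uncertain. Csf3r, the receptor of granulocyte colony-stimulating factor, differed by 0.03, and Ly6g was not named on the array. Mmp8 differed by -0.08, and the groups of Retnlg, Elane and Prtn3 overlapped. Spleen 2 had the lowest Clec4e and Clec4d values of its tissue at a median marker level of 9.27, within the range of the other spleen samples. Single markers differed in this. S100a8, at 13.66, and Lcn2, at 9.27, were also lowest of the spleen samples in spleen 2. So were Ltf, at 13.16, Mmp9, at 7.27, Il1r2, at 7.38, and Elane and Prtn3, which lay below background there. Cxcr2, at 9.12, Camp, at 13.97, and Mpo, at 8.37, were lowest in spleen 1, and Retnlg, Mmp8 and Csf3r in spleen 3. The part of neutrophil RNA in the receptor differences was not tested.

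**Figure D3:**
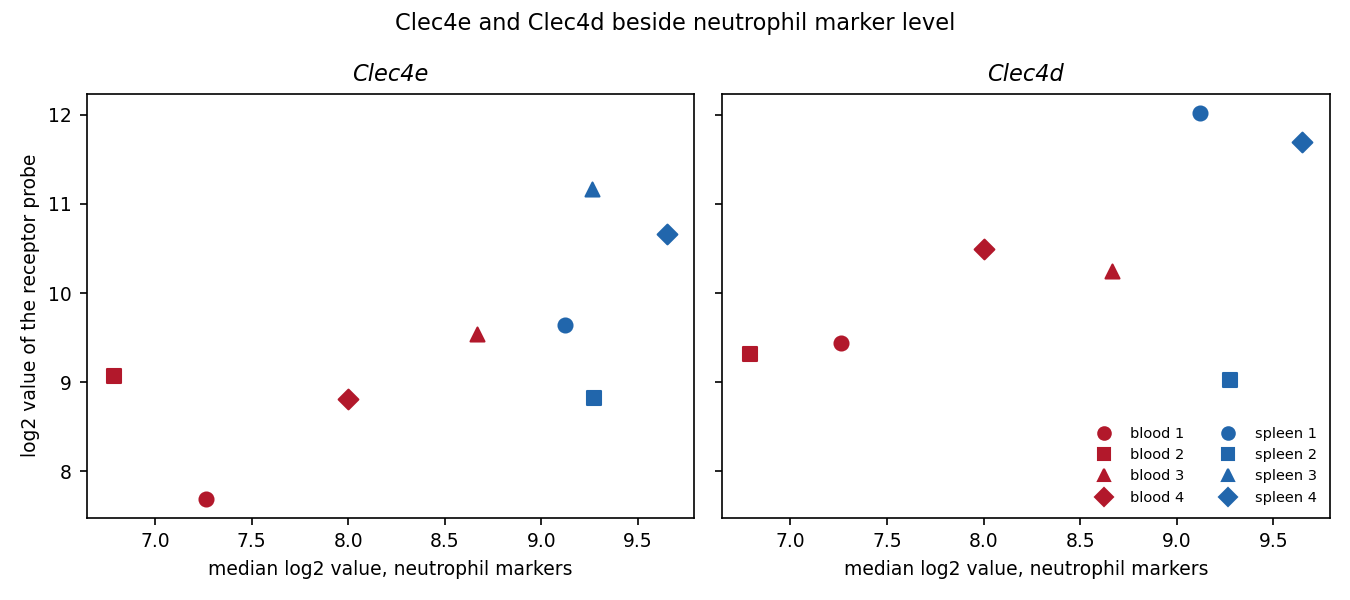
Log2 value of the Clec4e probe (left) and the Clec4d probe (right) in each sample against the median log2 value of 13 neutrophil markers in that sample. Spleen samples (blue) lie at 9.12 to 9.65 on the horizontal axis and blood samples (red) at 6.79 to 8.67; spleen 2 lies low on the vertical axis for both receptors.

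Of the red pulp macrophage markers, 5 of 6 were higher in spleen, against 48.8% of all genes. Their medians per sample were 7.41 to 8.43 in blood and 8.69 to 9.95 in spleen. Vcam1, an adhesion molecule of these macrophages, was 2.31 ± 0.37 (SE) higher, with blood 1, 2 and 3 below background. Spleen values lay entirely above blood for 3 of the 6, while Hmox1 (-0.03), Cd163 (0.29) and C1qa (0.40) had overlapping groups. Dendritic cell markers were higher in 5 of 6 cases. Itgax, which encodes CD11c, was 1.80 ± 0.48 (SE) higher, with all spleen values above blood. Flt3 (0.46), H2-Ab1 (0.47), Cd209a (0.21), Xcr1 (0.15) and Zbtb46 (-0.23) had overlapping groups. Clec9a, a receptor of cross-presenting dendritic cells, reached background on 2 of 8 arrays. Platelet markers were lower in 6 of 7 cases, at a median of -0.55. The part of these cells in the receptor values was not tested.

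Genes of the signalling chain below the receptors lay on both sides of no difference. Of 22 listed genes, 20 were tested, 12 higher and 8 lower in spleen, with a median of 0.10. This median was 0.33 with all 8 scanner files, 0.25 in the 5 matching columns, -0.14 over genes above background on all 8 arrays and -0.04 without blood 3. None passed the adjusted limma test, and 1 was lower and 0 were higher at an unadjusted p of 0.05. Syk, the kinase on which the activating receptors converge, had the smallest p of the list. It read 12.74, 12.49, 12.42 and 12.23 in blood 1 to 4 and 11.74, 12.13, 11.63 and 11.89 in spleen 1 to 4. All spleen values lay below all blood values, as in 1.41% of all genes, and the difference was -0.62 ± 0.21 (SE, limma adjusted p = 0.731).

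The kinase Btk differed by -0.57 ± 0.29 (SE) and the scaffold Bcl10 by -0.37 ± 0.20, and neither passed an unadjusted limma p of 0.05. All spleen values of Bcl10 lay below all of its blood values, while those of Btk overlapped.

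Fcer1g, the shared adaptor of Clec4e, Clec4d and Clec4n, read 13.98, 14.40 and 14.18 in blood 1 to 3, with no value for blood 4, and 14.78, 14.47, 14.00 and 14.11 in spleen 1 to 4. The tissues overlapped, at a difference of 0.15 ± 0.27 (SE) with an interval from -0.46 to 0.76. Tyrobp, the adaptor of Clec5a, had values for blood 3, spleen 3 and spleen 4 alone and was not tested, and Card9 was not named on the array. The inhibitory phosphatases Ptpn6 (0.10 ± 0.29, SE) and Ptpn11 (0.35 ± 0.24) had overlapping groups.

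**Figure D4:**
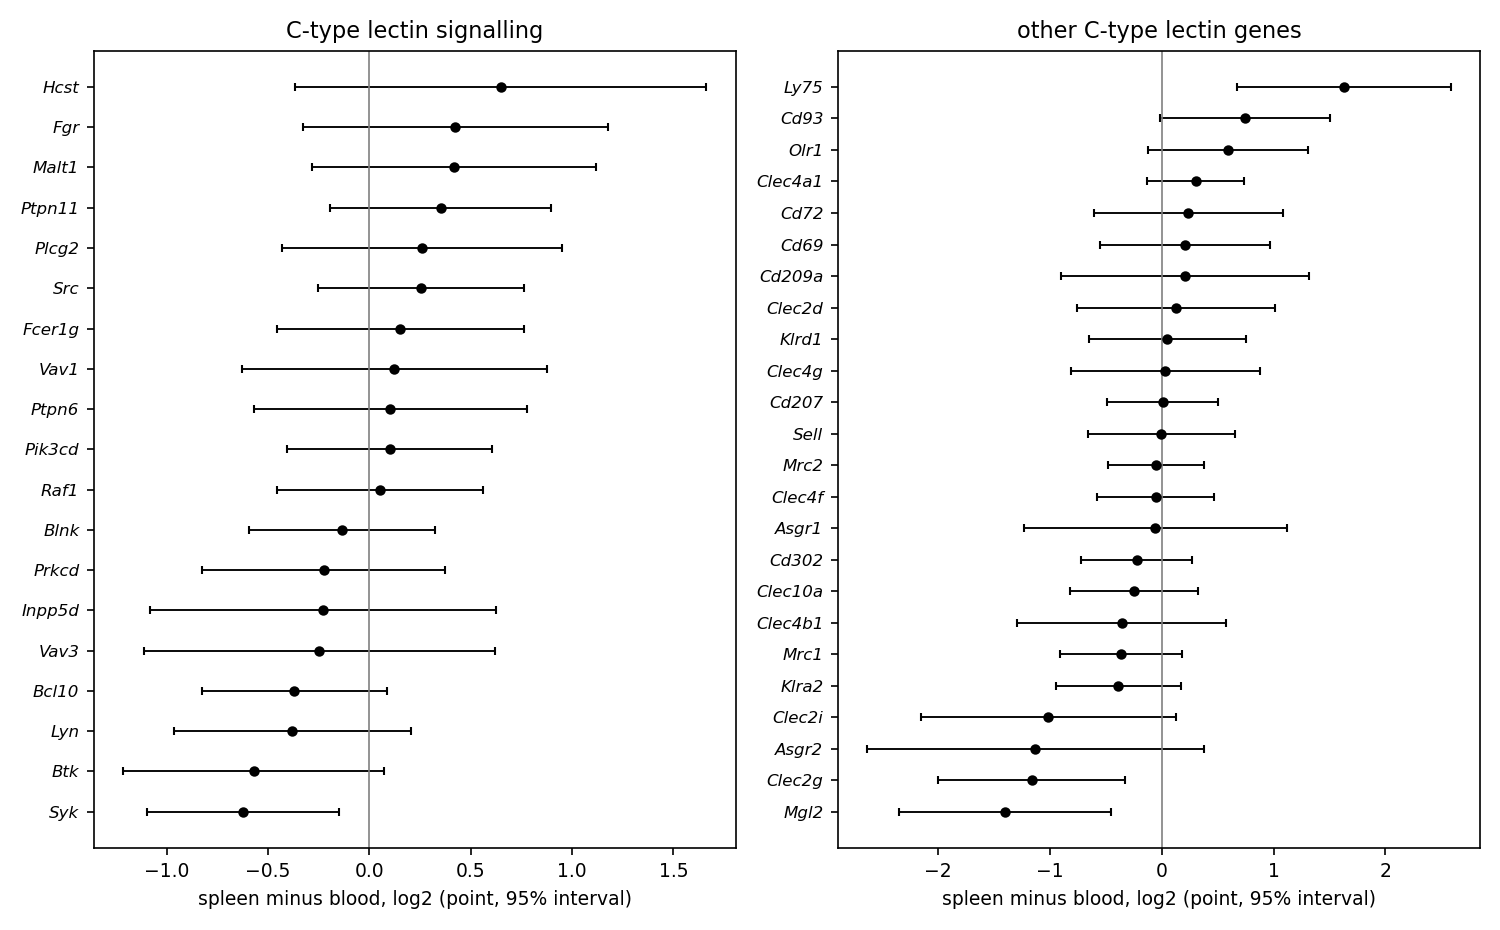
Difference between tissues, spleen minus blood on the log2 scale, of genes of C-type lectin signalling (left, 1 tested gene not shown) and 24 other C-type lectin genes (right), with the limma estimate as a point and its 95% interval as a bar. The left axis spans a narrower range than the right; Syk on the left and Ly75, Mgl2 and Clec2g on the right have intervals that leave out 0.

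Genes that these receptors are known to induce were in part too dim to test, and Ccl4, with no value for blood 2, spleen 2 and spleen 4, had too few values. Of 16 listed, 8 were tested, 5 higher and 3 lower in spleen, where 48.8% of all tested genes were higher. Their median was 0.44, against -0.01 for all genes. It was 0.22 without spleen 3 and 0.16 with all 8 scanner files. None passed the adjusted limma test, and 2, Ccl3 and Clec4e, were higher at an unadjusted p of 0.05. This list includes Clec4e and Clec4d themselves, which are induced by inflammatory stimuli, and both are among the 5 higher genes and raise the median. Of the other tested genes, Ccl3, Il1b and Egr2 were higher and Tnf, Nlrp3 and Egr3 lower. Ccl3, a chemokine for monocytes and neutrophils, read 6.47, 8.19, 6.67 and 6.55 in blood 1 to 4 and 8.75, 9.01, 6.92 and 8.70 in spleen 1 to 4. Blood 1, 3 and 4 lay below background, blood 2 and spleen 3 crossed over, and the difference was 1.38 ± 0.53 (SE, limma adjusted p = 0.804). The inflammatory cytokine gene Il1b differed by 0.46 ± 0.28 (SE), and Tnf by -0.02 ± 0.28. Il10, Il12b and Ptgs2 were below the background level on all 8 arrays and Il6 on 7 of 8.

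Among other C-type lectin genes, 40 were listed, 24 tested, 11 higher and 13 lower, with a median of -0.03. None passed the adjusted limma test, and 1 was higher and 2 were lower at an unadjusted p of 0.05. Ly75 (DEC-205), an endocytic receptor of dendritic cells, read 6.59, 7.16, 6.44 and 6.57 in blood 1 to 4 and 7.48, 9.29 and 8.19 in spleen 2 to 4. The groups did not overlap, as in 1.88% of all genes in that direction, and the difference was 1.63 ± 0.42 (SE, limma adjusted p = 0.57). Blood 1, 3 and 4 lay below background.

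Mgl2, a galactose-binding lectin of macrophages and dendritic cells, was 10.02, 10.62, 10.11 and 8.84 in blood 1 to 4 and 8.98, 9.08, 8.05 and 7.90 in spleen 1 to 4. Blood 4 fell among the spleen samples and the other blood samples were above them, at a difference of -1.40 ± 0.42 (SE, limma adjusted p = 0.659). Clec2g differed by -1.16 ± 0.37 (SE, adjusted p = 0.729 in limma), and Cd93, a receptor of myeloid and endothelial cells, by 0.75 ± 0.34 (SE). Set beside these, Clec4a1, a further DCIR gene, differed by 0.31 ± 0.19 (SE), with overlapping groups.

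With the scanner files in place of the table, where source, background handling and scaling all differ, several receptor differences moved by more than any left-out sample moved them. With all 8 scanner files, scaled to each array's 75th percentile, Clec4d was 4.60 higher in spleen, Clec5a 3.45 higher and Clec7a 1.79 higher, in place of 1.04, 0.41 and -0.04. With normexp and quantile normalization of the same files they were 3.07, 2.18 and 1.67. The Clec4d signal on that scale was -5.30, -5.15 and -2.62 in the files of blood 1 to 3 and 1.84 in that of blood 4, against -0.06 to 3.21 in spleen. The 3 files that did not match their columns were thus the lowest, and blood 4 lay within the spleen range. Clec4d was not well above background in the files of blood 1 and 2, nor Clec5a in that of blood 3, so the sizes of 4.60 and 3.45 rest in part on signals at background. Clec4e differed by 1.34 in that setting, close to 1.29 in the table. The slide could be held fixed with matching arrays for spleen 4 and blood 4 alone, where Clec4d was 1.20 higher in spleen, Clec5a 0.73, Clec4a2 0.72, Clec12a 0.58 and Clec4a3 0.22 higher, and Clec4n differed by -0.52. The Clec12a values of that pair, 6.68 in spleen 4 and 6.10 in blood 4, both lay below background. In no setting did a receptor pass the adjusted limma test, where the smallest adjusted p was 0.372. The unadjusted result did depend on the source. With all 8 scanner files, Clec4e, Clec4d, Clec7a and Clec5a had an unadjusted limma p below 0.05 in both scalings, and Clec4a3 with normexp alone. These settings include the 3 files that did not match, and the share of all genes at that level was not determined for them.

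**Figure D5:**
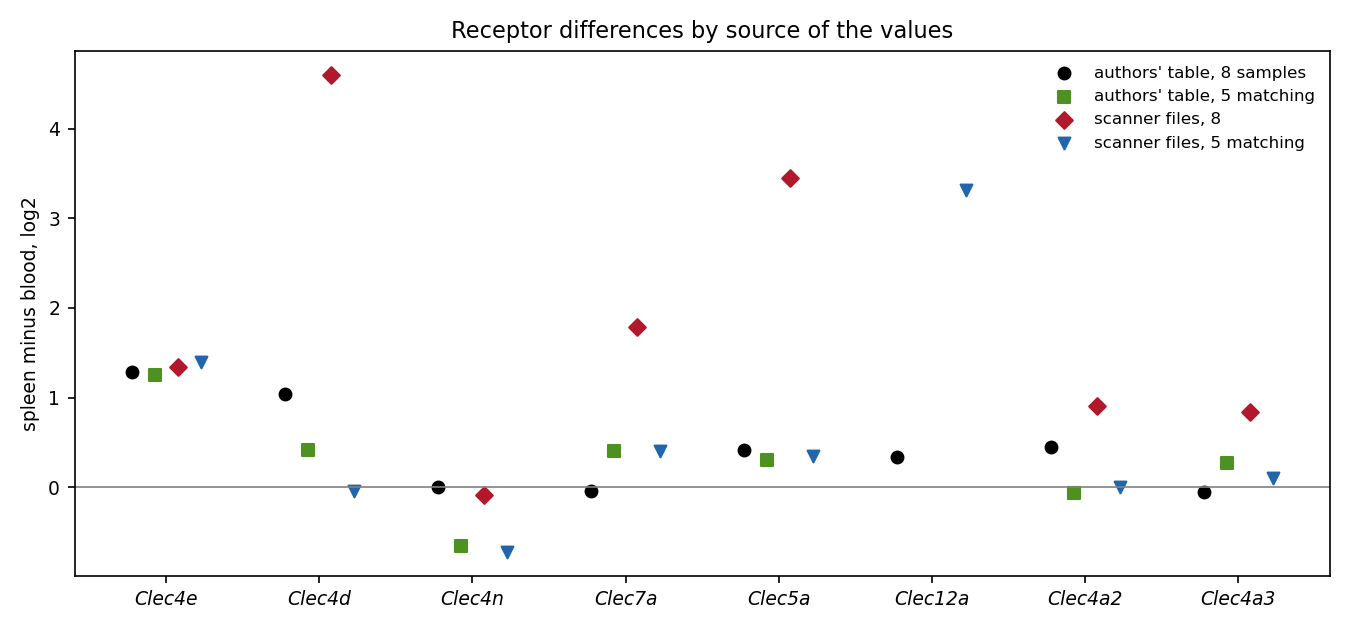
Spleen minus blood on the log2 scale for each receptor from the authors' table (circles), from its 5 columns with a matching scanner file (squares), from all 8 scanner files (diamonds) and from the 5 matching scanner files (triangles). Clec4e stays between 1.26 and 1.40, while Clec4d reaches 4.60 and Clec5a 3.45 with all 8 scanner files; the Clec12a triangle at 3.32 rests on a blood signal not well above background, and settings in which a gene was not tested have no symbol.

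Over the samples, each receptor's values were most like those of genes outside the lists. The highest Pearson correlations over 7 or 8 samples were with BC061478 and Snrpc for Clec4e (r = 0.96 for each), 2310022B05Rik and Sin3a for Clec4d (0.98), AI182371 and Slc25a34 for Clec4n (0.97), AK087034 and B3galnt2 for Clec7a (0.97), and Nedd4 and 1700047E10Rik for Clec5a (0.97 and 0.96). For Clec12a they were Mtfr2 and Rutbc1 (0.95 and 0.94), for Clec4a2 Cep55 and Tbc1d24 (0.997 and 0.96) and for Clec4a3 Far1 and Tmed9 (0.97 and 0.96). These are the highest of 18266 genes over so few samples, which share tissue and array, and they are given as a description.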

How the data were processed

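Gene expression was measured on 1-colour arrays in 4 blood and 4 spleen samples. Spot intensity values per sample were made, per the file headers, with Agilent Feature Extraction 9.5.1.1, with local background subtraction. The log2 values come from the table deposited by the authors, made with limma according to the submitters' processing notes (no version in the sources used here). Its scale was read from its columns, which rank probes as the scanner's median signal did on the matching arrays and share a median, so they appear to be quantile-normalized signals without background subtraction; this is not stated. Scanner flags for signals well above background, deposited in the same files, set the background level of 6.8, from which at least 95% of probes in each step passed on every matching array.

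Of 41174 probes, 25471 reached that level on at least 4 of 8 arrays with at least 3 values per tissue. Probes were named through a RefSeq table of the mouse (22951 probes), and the others kept the file's name. The brightest probe stood for a gene. Spleen was compared with blood by lmFit and eBayes (limma 3.58.1, R 4.3.3, data.table version 1.17.8), unpaired, with Benjamini-Hochberg adjustment at 0.05 over 18266 genes. The code was tested on simulated data. The design text takes both tissues from each mouse, but no label says that a number marks a mouse. Empty cells were left empty. Array number limits the precision. The 8 genes and all lists were chosen with earlier results of these data known. Named genes were the 8 receptors, the 2 adaptors, the 4 smallest p-values per related list and the 2 most alike genes per receptor; other genes named were chosen after their values were seen. Alternatives covered the source of values, background correction, filters, probes per gene, blocks, variance models and single samples left out. No ranking of levels between probes was made, since probes differ in response. The values of 1 gene of the signalling list are not reported here, and the counts and median of that list include it.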

Additional observations from a re-analysis of the deposited data

Results flagged for a closer look

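Of 21 groups of 4 values examined over the 12 receptor probes, 2 held a sample far from the others, measured as the gap to the nearest value over the group's range against Dixon's 95% critical value. Chance alone marks about 1 in 20 such groups. The intron-spanning Clec5a probe read 8.97 in spleen 2, where the nearest spleen sample read 7.89 (ratio 0.850). The dimmest Clec5a probe read 8.14 in blood 2, where the nearest blood sample read 6.53 (ratio 0.935). In both cases the brightest Clec5a probe was lowest of its tissue in that same sample, at 9.06 in spleen 2 and 8.77 in blood 2.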

How the results depend on the processing

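The count of receptors past the adjusted threshold stayed at 0 in all 21 other settings. Clec4e, Clec5a and Clec12a kept their direction wherever they were tested. The sign of small differences changed, and the cause was not tested. Clec4n was -0.087 with all 8 scanner files at the 75th percentile, -0.065 with normexp and quantile normalization, -0.65 in the 5 matching columns, -0.72 in the 5 matching scanner files, -0.085 with array weights, -0.068 with slide as a random block, and -0.52 between spleen 4 and blood 4 on 1 slide. In the same scanner settings and matching columns Clec7a was 1.79, 1.67, 0.40, 0.40 and, with slide as a block, 1.77. Clec4a3 was 0.83, 0.77, 0.27 and 0.11, then 0.0045 with array weights, 0.84 with slide as a block and 0.22 on 1 slide. Clec4a2 was -0.065 in the 5 matching columns and Clec4d -0.045 in the 5 matching scanner files. Without 1 sample each, Clec4n ranged from -0.19 to 0.23, Clec7a from -0.36 to 0.16 and Clec4a3 from -0.16 to 0.12.

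Receptors whose groups did not overlap numbered 1 in all 3 settings with 8 scanner files (Clec4a3, against 4.32% to 4.7% of all genes) and 3 in each setting with 5 matching arrays and 1 blood sample, against 34.2% and 33.4%. Leaving out 1 sample gave 0 to 2, the latter being Clec4e and Clec4d without spleen 2, against 6.76% of all genes. The median of the target genes fell to 0.040 with normexp. The 75th percentile scaling of all scanner files moved the median of all genes to -0.11.

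Correlations of same-numbered samples' deviations were 0.093, 0.141, 0.093 and 0.090, against -0.116 to 0.034 between samples of different number. A cut-off of 0.1 for every pair, an arbitrary choice, was not met, so the main test did not treat the numbers as pairs. Every sample correlated best with its own number, as a hint from the data alone. With the replicate block, fixed, 0 receptors passed, and Clec4e had a limma adjusted p of 0.68; with it random, at a correlation of 0.21, 0 passed and the adjusted p was 0.557. Over all genes, limma called 0 without the block, 1 with it fixed and 13 with it random. Filling empty cells from the scanner signal was chosen after seeing the data.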

Other observations

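Several receptor differences that were small in the table were larger when the 3 blood files that do not match it were used, and the probe readings show where. On the 75th percentile scale, Clec5a read -3.30, -1.10 and -6.33 in the files of blood 1 to 3 and 0.56 in that of blood 4, with -0.05 to 1.70 in spleen, the lowest of these, -6.33, not being well above background. Clec7a read 2.17, 1.61 and 0.63 in those 3 files, 3.33 in that of blood 4 and 3.24 to 4.26 in spleen. Clec4a3 read 2.28, 3.44 and 2.70, then 3.78, with 3.83 to 4.01 in spleen. The intron-spanning Clec4a2 probe read -2.51, -2.31 and -3.36, then 0.26, with 0.55 to 1.71 in spleen. The brightest Clec4a2 probe, which stood for the gene, lay less far apart, at 1.46, 0.40 and 1.51, then 2.33, with 1.90 to 3.01 in spleen. Clec4e read -0.20, -0.46 and -0.14 in the 3 files and -0.34 in that of blood 4, and Clec4n -1.005, -0.71 and -0.36 against 0.16, so these 2 receptors did not set the 3 files as far apart. The sources used here do not say what cells those files hold.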
